A study of Mus musculus with 7 samples.

Results

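Liver RNA of mice was measured on 7 arrays, 1 for every 4 h, and the array at ZT14, early in the dark phase, is described here against its neighbours in time, ZT10 late in the light phase and ZT18 in the middle of the dark phase. ZT (Zeitgeber time) counts the hours after lights on, which is ZT 0, and ZT26 is the clock hour of ZT02 one day later. All groups were male C57/BL6 mice, aged 9 to 11 weeks by the labels, with no genetic change. The study's methods give an older age, that at sacrifice, which came after the light and feeding regimens given next. They had 2 weeks of 12 h light and 12 h dark with food at all hours, then 7 days in which food was given only from ZT12 to ZT24, so that ZT14 is the first array after both lights off and the return of food. Light and feeding changed at the same hour in every group and cannot be told apart. Each array carried a single pool, to which each of 5 livers gave 500 ng of RNA. The comparison thus uses 3 of the 7 arrays, with 1 array per time point and no replicate. Spread between animals is averaged within a pool, and the results are ranks and sizes with no test.

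Food restricted to the dark phase gives the liver a daily switch from fasting to feeding that runs beside its circadian clock. Feeding raises insulin, stops the genes that FoxO factors drive in the fasted state, and loads the endoplasmic reticulum with secretory and lipid work. Sterols taken up or made after a meal hold back SREBP2, the factor that drives cholesterol synthesis, and chaperones of the heat shock family follow body temperature and protein load, both of which change at the onset of activity. A cosine with a period of 24 h describes a slow wave and is a poor description of a rise or dip held by a single array.

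The difference used throughout is the log2 signal at ZT14 minus the mean of the log2 signals at ZT10 and ZT18. It was taken over the 12076 probe sets that carry a single gene symbol and have a mean over all arrays above 85 units on the natural scale, which stand for 10966 genes. Of the other single-symbol probe sets, 9713 were at or below that minimum, and 21 of those tested passed it only through their ZT14 signal. The probe sets just above the minimum, at a mean of 85.01 units, and just below it both had a difference of 0.0. The array medians lay between 6.37 and 6.40 (log2), and each array correlated with the others at 0.991 to 0.993 on average. The 11 hepatocyte markers tested summed to between 109600 and 113300 units on every array, and all 9 neutrophil markers were at or below the minimum. In 47.8% of tested probe sets, 2 or more arrays held exactly the same value, so a difference of exactly 0 is frequent.

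As a yardstick, ZT26 was set against ZT02, the same clock hour in other animals. These arrays differed by 1.5-fold or more in 80 probe sets (0.662% of those tested), and the SD of their difference over probe sets was 0.165 (log2). Scaled to a difference between 1 array and the mean of a pair, this is 0.143 for a single probe set, and it is no yardstick for the median of a list. It holds both the spread between pools and any change from one day to the next.

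At ZT14, 70 probe sets were higher than the mean of the neighbours by 1.5-fold or more (0.58%) and 108 were lower (0.894%). By gene, with the probe set of highest mean for each, 62 were higher (0.565%) and 101 lower (0.921%). The other inner arrays, each set against its own neighbours, gave 74 probe sets in either direction at ZT06 (0.613%), 235 at ZT10 (1.95%), 82 at ZT18 (0.679%) and 30 at ZT22 (0.248%), against 178 at ZT14. The array before ZT14 therefore held more single-array departures than ZT14 did, and since ZT10 is a neighbour of ZT14 the counts at these arrays share data. Against each neighbour alone, 226 probe sets were over ZT10 (1.87%) and 226 under it (1.87%), whereas 95 were over ZT18 (0.787%) and 207 under it (1.71%).

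**Figure D1:**
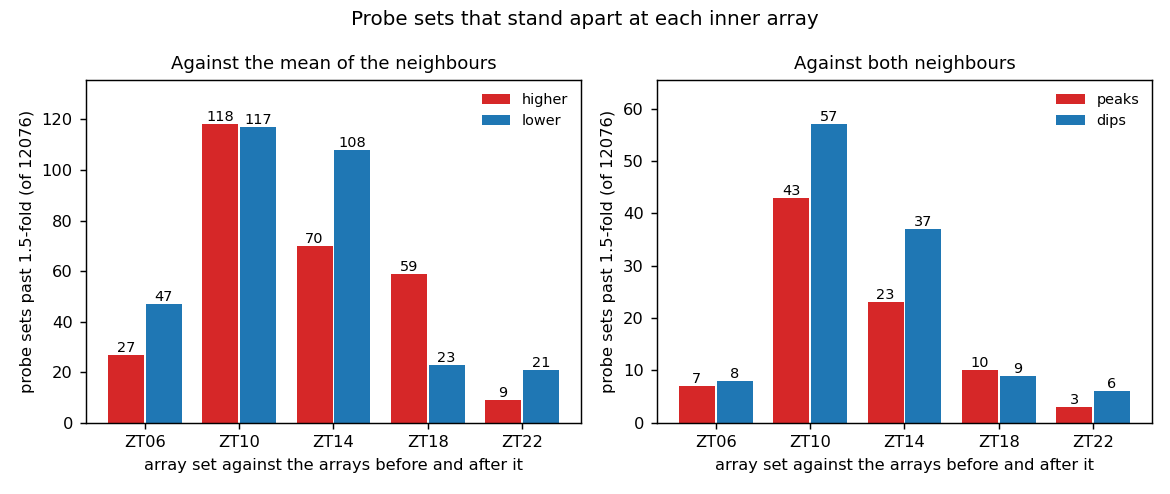
Number of probe sets, of 12076 tested, that were at least 1.5-fold higher (red bars) or lower (blue bars) at each inner array than the mean of the arrays before and after it (left) or than both of them (right). ZT14 has 70 and 108 on the left and 23 and 37 on the right, and ZT10 has more in each panel.

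A transient needs the ZT14 array to stand apart on both sides. Of the 70 higher probe sets, 23 were above both ZT10 and ZT18 by 1.5-fold (0.19%), and are called peaks below. A further 38 passed the fold against ZT10 only and 9 against ZT18 only. Of the 108 lower probe sets, 37 were below both neighbours by 1.5-fold (0.306%) and are called dips, 34 passed the fold against ZT10 only and 37 against ZT18 only. In all 60 peaks and dips ZT14 was also the highest or lowest of the 7 arrays. In 19 of the 23 peaks and 31 of the 37 dips it lay beyond each of the other 6 arrays by 1.5-fold. None of the peaks differed by 1.5-fold between ZT02 and ZT26, and 9 of the dips did. The smaller of the 2 differences was 0.59 for the peak nearest the threshold and 0.567 for the probe set just outside it, and 0.587 and 0.583 for the dips. Only 4 peaks and 5 dips were 2-fold away from both neighbours.

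**Figure D2:**
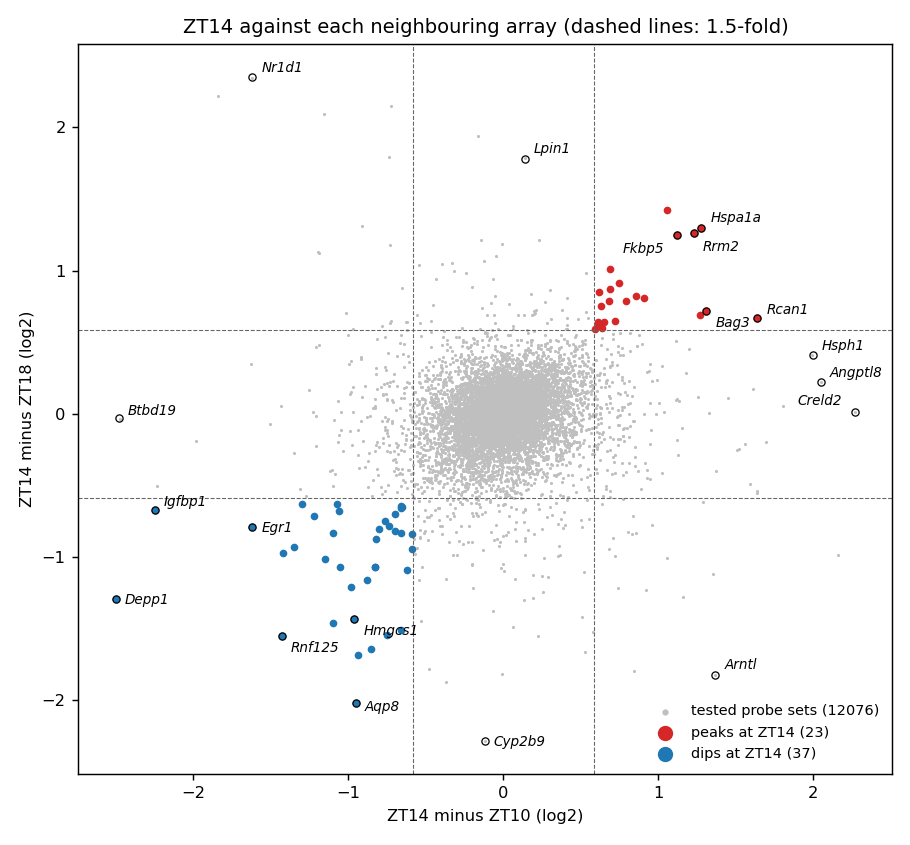
Each point is a tested probe set, with its log2 difference between ZT14 and ZT10 across and between ZT14 and ZT18 upwards; dashed lines mark 1.5-fold. The 23 peaks (red) fill the upper right corner and the 37 dips (blue) the lower left, while Creld2, Hsph1 and Angptl8 lie far right near the level of ZT18, and the clock genes Nr1d1 and Arntl lie off the diagonal, on their way down or up.

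Chaperones of the heat shock family held the highest peak and the largest list median. Hspa1a, the inducible cytosolic HSP70, read 98.06 units at ZT02, 94.91 at ZT06, 104.3 at ZT10, 253.2 at ZT14, 102.7 at ZT18, 79.08 at ZT22 and 86.2 at ZT26. It was flat on 6 arrays and 2.45-fold higher than the mean of its neighbours at ZT14. Its near-identical copy Hspa1b was not told apart from it here. Dnajb1, the HSP40 that hands substrates to HSP70, read between 186.3 and 237.8 units on 6 arrays and 416.7 at ZT14. Bag3, a co-chaperone that releases substrates from HSP70, went from 295.4 units at ZT10 to 731.8 at ZT14, and then read 442.9 at ZT18 and 347.2 at ZT22.

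These 3 were the peaks of the list, and the other members differed in how long they stayed high. Hsph1, the HSP110 that recharges HSP70, read 298.3 units at ZT10, 1190 at ZT14, 893.2 at ZT18 and 419.0 at ZT22. That was a 3.99-fold step followed by a decline. Hsp90aa1, the inducible HSP90, read 1115 units at ZT10, 3293 at ZT14 and 3815 at ZT18, and the small heat shock protein Hspb1 read 258.7, 804.8 and 1166. Both were thus higher at ZT18 than at ZT14. Of the 17 tested members, 7 were higher than the mean of the neighbours by 1.5-fold and 0 lower, all 17 had a difference above 0, and the median difference was 0.42, against 0.0 over all genes tested. Of all 10966 genes, 5461 had a difference above 0 and 5301 below 0, and 62 were higher and 101 lower by 1.5-fold. These counts stand beside those of every list below. The lists were chosen with earlier results of these data known, so no count or median of a list is independent support. The members split by neighbour, however: 12 were over ZT10 by 1.5-fold, 3 over ZT18, and the medians were 0.85 against ZT10 and 0.01 against ZT18. As a group the heat shock chaperones were thus high at both ZT14 and ZT18, and the spike at ZT14 was in Hspa1a, Dnajb1 and Bag3. ZT10 was the lowest of the 7 arrays in 9 of the 17 members. For such counts of the lowest or highest array, here and in the lists below, no share over all genes is given. The same holds for counts of members above or below a single neighbour by any amount.

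Heat shock factor binds inverted repeats of the unit GAA. The sequence GAANNTTC, a pair of such units that reads the same on both strands, occurred in 6.69% of 32851 RefSeq promoter windows of 250 bases before a gene's start (GRCm38.p6), and in 6 of the 20 windows of the 15 list members that could be matched. The longer element GAANNTTCNNGAA, which contains the shorter one, was searched on both strands and occurred in 0.466% of all windows and in 2 of those 20, the windows of Hspd1 and Hspe1, which share 1 stretch of DNA. Windows are shown for the 2 members holding the shorter sequence with the largest difference, the HSP70 gene and the HSP40 gene Dnaja1 (1590 units at ZT10, 2685 at ZT14 and 1812 at ZT18), with the matching bases in capitals. The first is chr17:34972157-34972406 on the minus strand, and its match lies 104 to 97 bases before the start. The second is chr4:40722218-40722467 on the plus strand, with its match 124 to 117 bases before the start. A match is a description of these letters and not a bound site. Matches to the shorter sequence and differences did not go together throughout. Dnajb1, Bag3, Hsph1 and Chordc1, with differences of 0.86, 1.02, 1.20 and 0.74, held none, and Hspd1, Hspe1 and Fkbp4 held one with 0.20, 0.15 and 0.21. The search leaves out the pair in the other order, TTCNNGAA, and imperfect units. No match in a member thus says nothing about heat shock factor there.
Hspa1a: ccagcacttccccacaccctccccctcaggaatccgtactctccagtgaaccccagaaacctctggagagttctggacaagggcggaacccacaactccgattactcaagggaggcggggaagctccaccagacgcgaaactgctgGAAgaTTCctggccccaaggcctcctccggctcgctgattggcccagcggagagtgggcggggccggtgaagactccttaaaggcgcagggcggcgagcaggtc
Dnaja1: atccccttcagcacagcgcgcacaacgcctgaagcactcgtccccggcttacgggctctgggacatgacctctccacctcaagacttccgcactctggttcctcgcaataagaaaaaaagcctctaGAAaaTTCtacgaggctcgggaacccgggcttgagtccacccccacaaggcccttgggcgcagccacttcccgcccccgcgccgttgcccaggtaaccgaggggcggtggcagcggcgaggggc

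**Figure D3:**
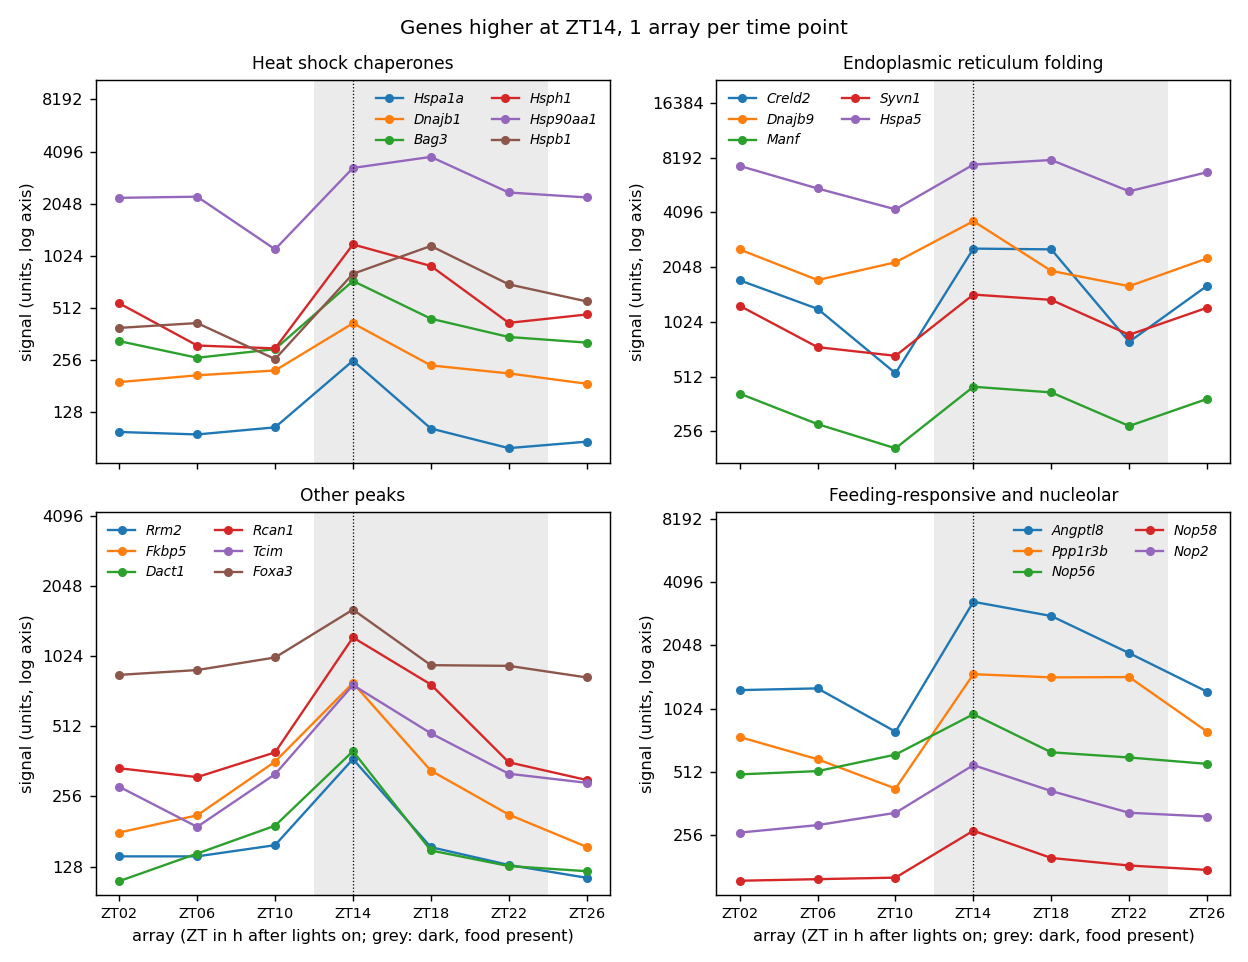
Signal in units (log axis) on the 7 arrays for genes higher at ZT14, 1 point per array; grey marks the dark phase, when food was present, and the dotted line ZT14. Hspa1a, Dnajb1, Rrm2, Fkbp5 and Dact1 form spikes at ZT14, whereas Hsp90aa1, Hspb1, Creld2, Hspa5 and Ppp1r3b stay high at ZT18.

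Genes of folding and quality control in the endoplasmic reticulum were low at ZT10 and high at ZT14 and ZT18, but also high at ZT02. The summed signal of the 25 tested members was 71750 units at ZT02, 64930 at ZT06 and 55440 at ZT10. It was then 73080 at ZT14, 72680 at ZT18, 61560 at ZT22 and 67010 at ZT26. A high level was thus not particular to the dark phase, and Creld2, Manf and Syvn1 read 1733, 413.2 and 1255 units at ZT02. Creld2, a secretory-pathway folding factor of the endoplasmic reticulum stress response, read 535.1 units at ZT10, 2588 at ZT14, 2563 at ZT18 and 796.2 at ZT22. ZT14 was 4.84-fold above ZT10, and ZT14 and ZT18 differed by 0.01 (log2). Manf, a secreted factor of the same response, went from 207.0 to 450.9 units and stood at 419.7 at ZT18. Syvn1, the ubiquitin ligase that clears misfolded proteins from this compartment, went from 666.7 to 1447 units and stood at 1353.

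The exception in shape was Dnajb9, the co-chaperone that restrains the stress sensor IRE1. It read 2176 units at ZT10, 3662 at ZT14 and 1952 at ZT18, and was the only peak among the 25 tested members of the list. Hspa5 (BiP), the main chaperone of this compartment, read 4252 units at ZT10, 7489 at ZT14 and 7938 at ZT18, short of 1.5-fold against the mean of its neighbours. In all, 4 members were higher by 1.5-fold and 0 lower, 24 had a difference above 0, and the median was 0.13. Against ZT10 the median was 0.36, with 9 members over by 1.5-fold, and against ZT18 it was -0.02 with 2 over, 1 of them Herpud1 (5861 units at ZT10, 6650 at ZT14, 3732 at ZT18). ZT10 was the lowest of the 7 arrays in 18 of the 25 members. Against ZT10, 23 of the 25 were higher at ZT14, a count with no share over all genes beside it.

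The endoplasmic reticulum stress element, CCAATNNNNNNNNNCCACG on either strand, is the site at which ATF6 and NF-Y act on such genes. It occurred in 0.113% of all promoter windows and in 9 of the 22 windows of the 21 list members matched. The element is an established feature of this gene family, so its share in the list is no result about ZT14. Of those 9 genes, 2 passed the fold at ZT14, Creld2 and Syvn1, and the other 7 had differences from -0.01 to 0.37. The windows of these genes and of Hspa5 are shown, since they are the members holding the element with the largest differences, with its fixed letters in capitals. They lie at chr15:88819396-88819645 on the plus strand, chr19:6046326-6046575 on the plus strand and chr2:34771840-34772089 on the plus strand, and the element of Creld2 is on the opposite strand.
Creld2: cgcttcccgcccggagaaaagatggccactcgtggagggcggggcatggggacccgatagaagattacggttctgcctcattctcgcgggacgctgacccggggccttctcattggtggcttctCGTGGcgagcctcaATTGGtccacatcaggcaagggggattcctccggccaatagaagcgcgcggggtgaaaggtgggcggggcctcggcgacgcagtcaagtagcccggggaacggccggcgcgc
Syvn1: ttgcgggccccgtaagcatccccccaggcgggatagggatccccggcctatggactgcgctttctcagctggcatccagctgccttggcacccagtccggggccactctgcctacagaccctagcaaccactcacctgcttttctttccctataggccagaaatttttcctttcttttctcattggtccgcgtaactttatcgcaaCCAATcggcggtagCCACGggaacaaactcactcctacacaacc
Hspa5: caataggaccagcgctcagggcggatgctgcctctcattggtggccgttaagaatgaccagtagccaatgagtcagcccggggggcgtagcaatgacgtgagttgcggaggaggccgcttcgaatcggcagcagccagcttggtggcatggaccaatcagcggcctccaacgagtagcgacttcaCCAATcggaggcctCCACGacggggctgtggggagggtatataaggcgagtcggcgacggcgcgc

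Genes of ribosome biogenesis had small differences at ZT14, from -0.09 to 0.62, most of them above 0. Of 29 tested genes, 27 had a difference above 0, 2 were higher by 1.5-fold and 0 lower, and the median was 0.24. The medians were alike against the neighbours taken singly (0.25 against ZT10 and 0.21 against ZT18), and ZT14 was the highest of the 7 arrays in 20 of the 29. Nop56, a core protein of the particles that methylate ribosomal RNA, read 618.7 units at ZT10, 962.4 at ZT14 and 634.4 at ZT18, and was a peak. Its partner Nop58 read 161.0, 269.1 and 199.6, and Nop2, a ribosomal RNA methyltransferase, read 327.2, 551.6 and 415.2. Gas5, an RNA that hosts nucleolar small RNAs in its introns, was outside the list and was also a peak, at 97.59, 160.3 and 101.9 units. By 1.5-fold, 6 members were over ZT10 and 1 over ZT18.

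Genes that glucocorticoids induce were mixed. Fkbp5, the co-chaperone of the glucocorticoid receptor and a sensitive target of it, had the third highest peak, at 361.1 units on ZT10, 784.7 on ZT14 and 330.3 on ZT18, with 155.5 to 214.0 on the other 4 arrays. Zbtb16, a transcription factor that the hormone induces strongly, read 789.9, 1145 and 578.4 units, but was again at 1085 on ZT22. Klf9 went the other way, with 1653 units at ZT10, 789.2 at ZT14 and 904.1 at ZT18. Of 15 tested members 2 were higher and 1 lower by 1.5-fold, and the median was 0.30 (0.36 against ZT10 and 0.11 against ZT18). Tsc22d3, which codes for the hormone-induced leucine zipper protein GILZ, stood at 889.0 units on ZT14 and 907.2 on ZT18, a step and not a peak.

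Of the 23 peaks, 6 were in a list and are given above, and the others were not. Rrm2, the small subunit of ribonucleotide reductase, read 158.2 units at ZT10, 370.3 at ZT14 and 155.1 at ZT18, with 114.6 to 141.6 on the other arrays. Dact1, an inhibitor of Wnt signalling that binds Dishevelled, read 191.7, 400.4 and 150.1, and Rcan1, the feedback inhibitor of calcineurin, read 395.7, 1231 and 773.4. Rrm2 and Dact1 were back to their daytime level by ZT18, and Rcan1 was not until ZT22, at 358.7 units.

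Some smaller peaks were genes of hepatocyte regulation and signalling. Foxa3, a forkhead factor of hepatocyte identity, read 829.4 to 1010 units on 6 arrays and 1621 at ZT14. Lepr, the leptin receptor, read 97.04 units at ZT10, 148.7 at ZT14 and 82.37 at ZT18, and passed the expression minimum only through its ZT14 signal. Tcim, a small regulator of the Wnt pathway, read 319.0, 769.2 and 477.6. Nfxl1 was measured by 2 probe sets and was a peak in both (160.2, 290.7 and 164.7 units in one, 149.8, 232.5 and 138.7 in the other). Akap17b, Mis12, Ncdn, Sox7 and Tmem251 completed the weaker peaks, and Sox7 and Tmem251 had exactly the same value on ZT10 and ZT18. Tmem251, like Lepr, passed the minimum only through ZT14, and with the minimum set on the other 6 arrays 21 peaks were counted.

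A pair of genes that answer to feeding and insulin stepped up at ZT14 and stayed high. Angptl8, a secreted inhibitor of lipoprotein lipase made by the fed liver, read 795.1 units at ZT10, 3294 at ZT14, 2819 at ZT18 and 1878 at ZT22. Ppp1r3b, which targets a phosphatase to glycogen so that glycogen synthase is switched on, read 426.7, 1492, 1440 and 1445 units on the same arrays. Igfbp1, a binding protein of insulin-like growth factor whose gene insulin represses, went the other way, from 1922 units at ZT02 through 557.2 at ZT10 to 117.3 at ZT14, then 186.5 at ZT18. Igfbp1 was a dip, 4.75-fold below ZT10 and 1.59-fold below ZT18. Ppp1r3g was low at ZT14 only in comparison with ZT10 (391.3 units, then 126.7 and 99.46). The list held 22 tested genes, 2 higher and 2 lower by 1.5-fold, with a median of -0.08. The members thus differed in direction, and the list had no common shift.

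Depp1, Ccng2 and Erbb3 were dips as well, and were no list of their own. Depp1, a FoxO target, read 664.8 units at ZT10, 117.3 at ZT14 and 286.7 at ZT18, and 1444 at ZT02. Its ZT14 signal was 5.67-fold below ZT10 and 2.44-fold below ZT18, the largest mean difference of all dips (-1.90 in log2). Ccng2, a cyclin of growth arrest that FoxO factors induce, read 121.2, 78.63 and 167.0 units. Erbb3, a receptor that is induced when insulin signalling is low, read 1898, 815.4 and 1332. Pdk4, which shuts off glucose oxidation in fasting, was low at ZT10 already (113.5 units, then 133.0 and 389.9), so that its difference of -0.66 rested on ZT18 alone. Plin5, which coats lipid droplets, was higher instead, at 314.9, 598.1 and 489.0 units. Among 19 tested genes of fasting and ketogenesis 1 was higher and 1 lower, 0 were dips, and the median was 0.01.

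The largest dip on both sides was that of Rnf125, a ubiquitin ligase that acts on sensors of viral RNA. It read 7411 units at ZT02, 5013 at ZT06, 2808 at ZT10, 1042 at ZT14, 3050 at ZT18, 5974 at ZT22 and 6988 at ZT26. The course is a deep trough centred on ZT14, and the cosine through the other 6 arrays stood at 2176 units there. Aqp8, a water channel of the hepatocyte, read 1441 units at ZT10, 744.1 at ZT14 and 3022 at ZT18, Camk1d, a calmodulin-dependent kinase, read 569.6, 288.6 and 668.6, and Wsb1, a substrate receptor of a ubiquitin ligase, read 428.5, 160.6 and 315.1. B3galt1, a galactosyltransferase, read 449.6, 210.3 and 578.9 units, but also differed 1.59-fold between ZT02 and ZT26. Rps23rg1, a retrocopy of a ribosomal protein gene whose signal may hold that of its parent, read 278.8, 125.3 and 251.7. Egr1, an immediate early factor, read 230.6 units at ZT10, 75.17 at ZT14 and 130.1 at ZT18 and was highest at ZT02 and ZT26 (637.3 and 677.8), and Btg1, a growth inhibitor, read 1055, 756.2 and 1245. These were the 2 lower ones of 22 tested immediate early genes, 0 were higher, and the list's median was 0.01.

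The weaker dips covered varied functions. Ripor2 and Acpp, an acid phosphatase, read 105.2, 58.5 and 182.7 units and 155.5, 72.51 and 128.7. Bco2, which cleaves carotenoids, read 333.7, 205.8 and 363.0, and Cdc14b, a phosphatase, read 933.1, 448.3 and 716.2. Spon2, Pik3c2g, Shank2, Klf12, Prkca, Eepd1 and Arhgap6 were dips as well, with Pik3c2g at exactly the same value on ZT10 and ZT18. The 7 dip probe sets of predicted genes and small RNAs included 2 of Snord118 with identical values, which may be 1 measurement.

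**Figure D4:**
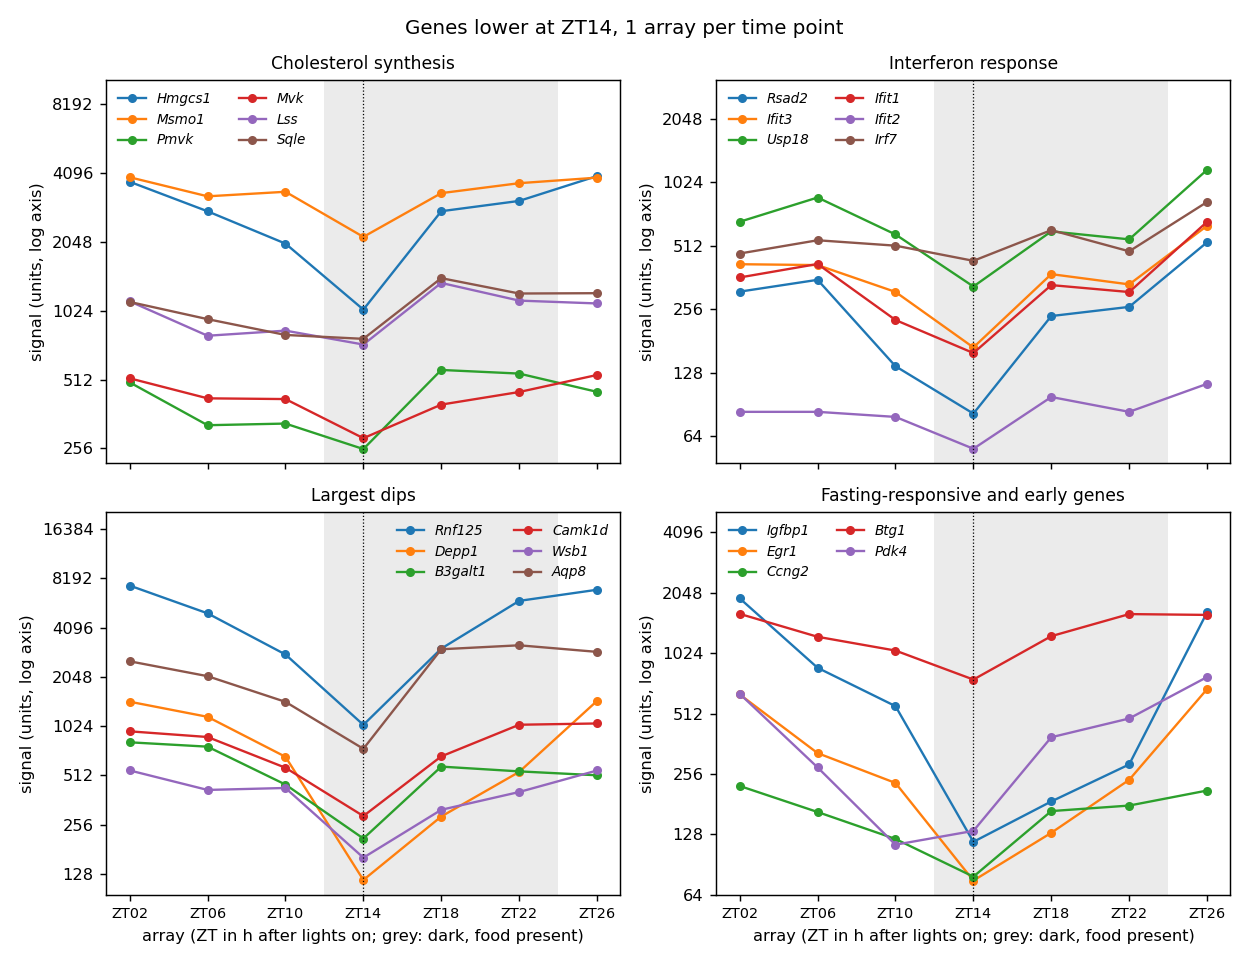
Signal in units (log axis) on the 7 arrays for genes lower at ZT14, 1 point per array, with the dark phase in grey and ZT14 dotted. Hmgcs1, Msmo1, Rnf125, Depp1 and Aqp8 have their lowest point at ZT14, and the interferon genes are lowest at ZT14 but also stand higher at ZT26 than at ZT02.

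All 19 tested genes of cholesterol synthesis had a difference below 0, although 3 of them read above ZT10. By 1.5-fold 3 were lower and 0 higher, and the median was -0.38 against 0.0 over all genes. Over all genes tested, 5301 of 10966 had a difference below 0. ZT14 was the lowest of the 7 arrays in 14 of the 19, a count with no share over all genes beside it. Hmgcs1, which makes HMG-CoA in the cytosol for the mevalonate pathway, read 3755 units at ZT02, 2789 at ZT06, 2014 at ZT10, 1036 at ZT14, 2791 at ZT18, 3096 at ZT22 and 3978 at ZT26. It was 1.94-fold below ZT10 and 2.69-fold below ZT18. Msmo1, which removes methyl groups from sterols late in the pathway, read between 3243 and 3930 units on 6 arrays and 2155 at ZT14. Both were dips.

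Other steps of the pathway were already low before lights off, or came back by a larger amount. Pmvk, the second kinase of the mevalonate pathway, read 328.5 units at ZT10, 254.1 at ZT14 and 563.9 at ZT18. Sqle, the squalene oxidase that is the second controlled step, read 802.3, 771.4 and 1422, and Mvd, which makes isopentenyl diphosphate, read 277.2, 277.8 and 594.8. Against ZT10 the list's median was -0.21, with 16 of 19 members below and 2 by 1.5-fold, and against ZT18 it was -0.49 with 19 of 19 below and 8 by 1.5-fold. ZT18, 4 h later, was higher than ZT14 in all 19 members, and by the medians the difference from ZT18 was the larger one. The counts below a single neighbour have no share over all genes beside them. Srebf2, the gene of SREBP2, read 490.9, 521.2 and 733.8 units. Fatty acid synthesis, in contrast, had a median of -0.00 with 1 gene of 23 higher and 2 lower, and each of these calls rested on 1 neighbour. Lpin1, a phosphatidate phosphatase, read 2488, 2741 and 795.6 units, Elovl3, a fatty acid elongase, read 1453, 1447 and 5098, and Lpin2, a relative of Lpin1, read 3036, 1314 and 1327.

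The sterol regulatory element, searched as TCACNCCAC on both strands, occurred in 1.05% of all promoter windows and in 1 of the 18 windows of the 15 list members matched, that of Hmgcs1. This strict form leaves out known variants of the element, so no match in another member says nothing about SREBP2 there. The window of Hmgcs1 is shown because it carries both the dip and the element, with the fixed letters in capitals, at chr13:119690101-119690350 on the plus strand.
Hmgcs1: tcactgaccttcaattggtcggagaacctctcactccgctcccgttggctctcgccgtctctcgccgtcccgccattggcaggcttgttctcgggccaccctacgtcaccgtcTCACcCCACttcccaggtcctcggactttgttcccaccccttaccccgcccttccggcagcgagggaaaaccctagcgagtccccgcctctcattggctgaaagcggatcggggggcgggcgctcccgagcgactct

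Genes of the interferon response had the lowest list median, at -0.53 over 11 tested genes, of which 10 were below 0, 5 lower by 1.5-fold and 0 higher. Rsad2, an antiviral enzyme, read 310.0 units at ZT02, 352.8 at ZT06, 137.1 at ZT10, 81.66 at ZT14, 237.4 at ZT18, 262.4 at ZT22 and 532.0 at ZT26. Ifit3, which binds viral RNA with its relatives, read 309.0, 168.4 and 375.4 units at ZT10, ZT14 and ZT18, and Usp18, the protease that takes ISG15 off proteins and damps the pathway, read 579.4, 327.9 and 599.3. Ddx60, Trim12a and Trim30d, further genes tied to antiviral defence, were outside the list and were dips too. They were also above ZT02 at ZT26, by 1.93-, 1.55- and 1.52-fold, so the limit given below for the list holds for them as well. Ifit and Trim genes have close relatives in the genome, and how far the probes of one read another was not tested.

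This list also moved between pools of the same clock hour. ZT26 was above ZT02 by 1.5-fold in 5 of the 11 members, with a median of 0.50 that is close in size to the dip. All 5 members that passed the fold at ZT14 were above ZT02 at ZT26, from 0.44 in Ifit2 to 0.88 in Ifit1. The median of the list was -0.24 against ZT10 and -0.82 against ZT18. The summed signal of the 12 tested Kupffer cell markers, for the macrophages of the liver, was 6332 units at ZT10, 6692 at ZT14 and 7885 at ZT18, between 7958 and 9729 on the other arrays, and 12 of 12 markers were below ZT18 at ZT14, 0 by 1.5-fold. In pooled tissue, fewer cells of a type and less RNA per cell cannot be told apart, and the part of the Kupffer cells in the low interferon values was not tested. For 1 pool per time point, a difference between pools and a difference between hours cannot be told apart in this list.

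Of the 9 tested interferon genes that could be matched to a promoter window, 5 held the interferon-stimulated response element, searched as TTTCNNTTTC on both strands, in 5 of 11 windows, against 2.98% of all windows. They were Rsad2, Ifit3 and Ifit1, with differences of -1.14, -1.02 and -0.80, and Bst2 and Oas1a, with -0.04 and 0.24. The element thus stood both in genes that dipped and in genes that did not. The windows of the first 2 are shown with the fixed letters in capitals, at chr12:26456453-26456702 on the minus strand and chr19:34583279-34583528 on the plus strand, the latter with 2 copies.
Rsad2: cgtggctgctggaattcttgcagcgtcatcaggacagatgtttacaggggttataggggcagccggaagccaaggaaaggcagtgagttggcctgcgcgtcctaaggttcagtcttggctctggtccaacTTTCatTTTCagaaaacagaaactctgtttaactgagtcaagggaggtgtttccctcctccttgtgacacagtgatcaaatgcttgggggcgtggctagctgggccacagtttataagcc
Ifit3: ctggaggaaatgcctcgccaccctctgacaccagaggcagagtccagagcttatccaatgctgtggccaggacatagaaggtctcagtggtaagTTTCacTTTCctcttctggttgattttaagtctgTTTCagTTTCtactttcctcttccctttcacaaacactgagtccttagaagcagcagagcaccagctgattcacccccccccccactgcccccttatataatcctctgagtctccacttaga

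The clock itself was in transit at ZT14 and mostly lay near a log2 line between its neighbours, though not always near a cosine, as given below. Of 14 tested core clock genes 0 passed 1.5-fold in the difference and the median was -0.02. Nr1d1, the repressor REV-ERBa, read 2312 units at ZT10, 750.7 at ZT14 and 147.6 at ZT18, and Arntl (Bmal1), which it represses, read 39.15, 101.0 and 357.2. These large and opposite slopes cancel in the difference on the log2 scale (0.36 and -0.23), but with the neighbours averaged on the natural scale the differences were -0.71 and -0.97. Per2, the period repressor with the latest peak of the 3, read 590.4, 1035 and 882.2 units and had the highest difference, 0.52. Cry1 read 152.5, 270.8 and 483.4, a straight line upwards in log2 with a difference of -0.00.

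Per1 and Per3 were past their highest array by ZT14. Per1 read 671.5, 425.4 and 290.3 units at ZT10, ZT14 and ZT18, Per3 read 768.8, 392.8 and 260.1, and Nr1d2, the second REV-ERB gene, 1855, 808.2 and 370.3. Clock (455.9, 751.0 and 999.1) and Nfil3, the repressor E4BP4 (143.5, 256.5 and 420.2), ran upwards. Bhlhe40, the repressor DEC1, was highest at ZT14 with 1009, 1113 and 829.1 units. Cry2 and Rora, with differences of -0.36 and -0.35, were lower at ZT14 than on both neighbours by less than 1.5-fold, and the kinase genes Csnk1d and Csnk1e had differences of -0.10 and -0.01.

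Clock output genes had a median difference of 0.32 over 13 genes, with 12 above 0, 1 higher by 1.5-fold and 1 lower. The median was -0.03 against ZT10 and 0.51 against ZT18, with 6 of the 13 over ZT18 by 1.5-fold. Against a cosine through the other 6 arrays, the list's median gap at ZT14 was -0.23, opposite in sign to its median difference. Ciart, a repressor of the clock, read 875.8, 783.9 and 204.1 units, and a second probe set read 930.2, 562.3 and 126.6. Of the PAR bZIP factors, Dbp (2161, 970.4 and 227.8) and Tef (1104, 752.6 and 467.0) were lower at ZT14 than at ZT10, whereas Hlf (659.5, 762.2 and 564.5) had its highest array at ZT14. Usp2, a deubiquitinase (1685, 1352 and 677.5), Wee1, a mitotic kinase (887.7, 673.9 and 482.4), and Upp2, a uridine phosphorylase (5538, 3520 and 1913), were highest at ZT10 of the 3 arrays, as Dbp and Tef were. Alas1, for heme synthesis (7059, 7253 and 4257), Nampt, for NAD synthesis (1449, 1783 and 1251), Tspan4 (2156, 3230 and 3008) and the iron uptake receptor Tfrc (218.1, 374.5 and 426.4) were higher at ZT14 than at ZT10, the last with its highest array at ZT18. Ypel2 was lower at ZT14 than at ZT18 only (151.5, 158.6 and 445.2), and Ces2a, a carboxylesterase (2109, 2067 and 1913), was near flat.

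**Figure D5:**
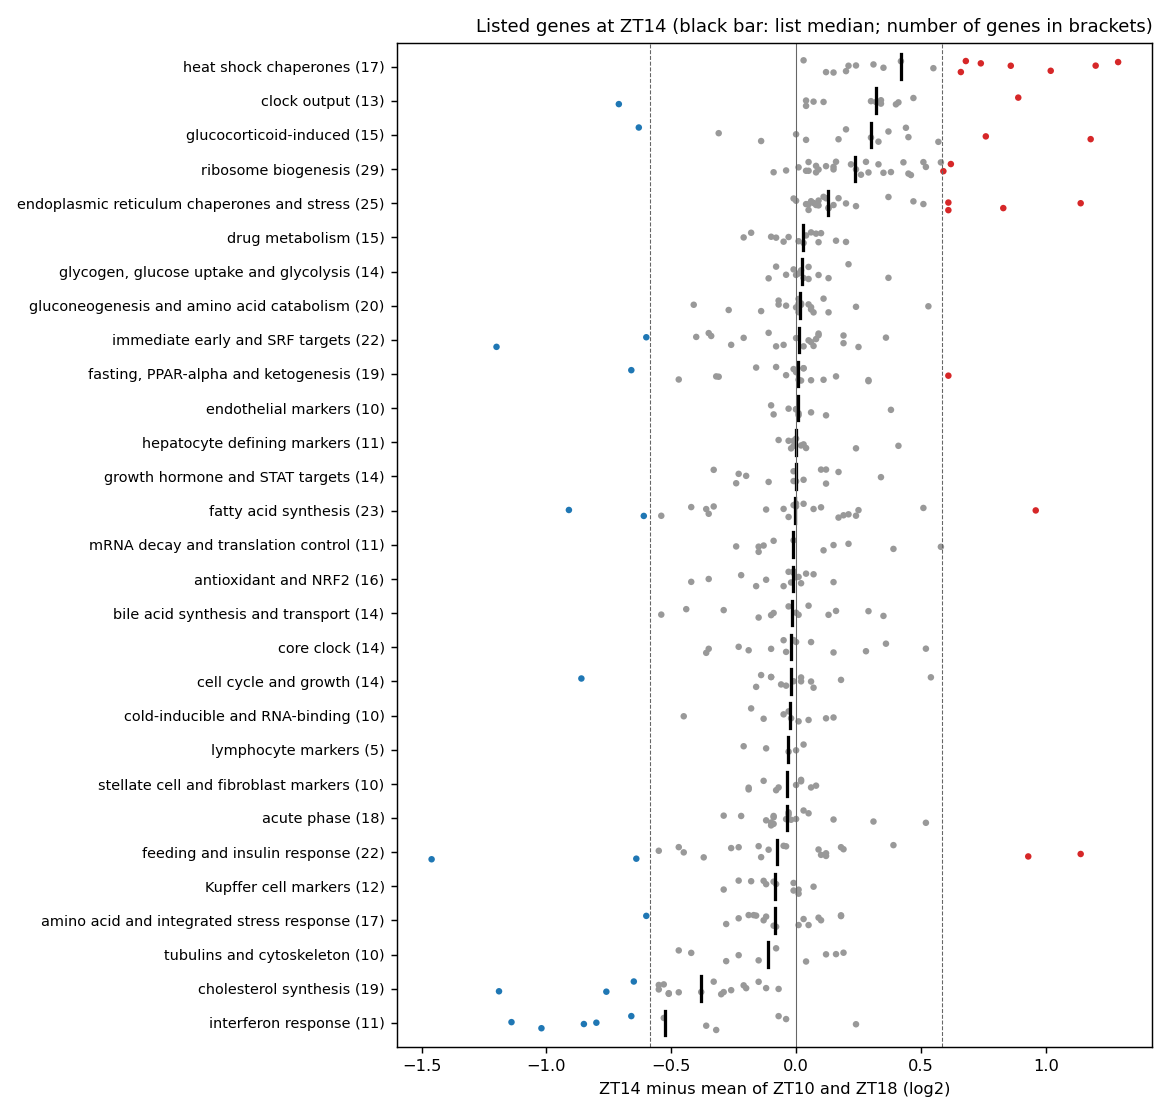
Difference at ZT14 (log2, ZT14 minus the mean of ZT10 and ZT18) of every tested gene in the lists with 5 or more tested genes; red and blue points are past 1.5-fold, dashed lines mark that fold and black bars the list medians. Heat shock chaperones have the highest median (0.42) and interferon and cholesterol genes the lowest (-0.53 and -0.38), with most other lists near 0. The lists were chosen with earlier results of these data known.

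A cosine fitted to the 6 other arrays was used to ask what a slow wave leaves at ZT14. The ZT14 signal was above that cosine by 1.5-fold in 70 probe sets (0.58%) and below it in 87 (0.72%). Of the 23 peaks 19 were among the first, and of the 37 dips 30 were among the second. The peaks within 1.5-fold of the cosine were B4galt5, St3gal5, Nop56 and Tmem251, with gaps from 0.33 to 0.54. The dips within it were Igfbp1, Egr1, Spon2, Msmo1, Ddx60, Trim12a and Trim30d, with gaps from -0.34 to -0.56. The gap uses the same ZT14 value, and the fit includes ZT10 and ZT18, which chose the peaks and dips. This overlap is therefore no independent support. Among all probe sets past the difference, 20 of the higher and 39 of the lower were within 1.5-fold of the cosine. Conversely, 20 probe sets above the cosine and 18 below it had not passed the difference.

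The largest gap above the cosine was that of Creld2, at 2588 units where the cosine gave 980, followed by Hsph1 (1190 against 495) and Hspa1a (253.2 against 106). Angptl8 stood at 3294 against 1630, Id3, an inhibitor of helix-loop-helix factors, at 624.8 against 324, and Gmppb, which makes the GDP-mannose used in glycans, at 250.6 against 125. The largest gaps below the cosine were a mixture. Aqp8, Depp1, Ripor2 and B3galt1, with gaps of -1.37, -1.28, -1.22 and -1.18 (log2), were dips. Cabyr (491.2 units at ZT06, 652.9 at ZT10 and 138.9 at ZT14) and Clec2h (790.2, 930.7 and 236.0) were high on both arrays before ZT14 and lower from ZT14 on, and the cosine gave 522 and 540. Btbd19 was high on ZT10 alone (190.7, 680.1 and 122.3), with the cosine at 389. Per3 was 392.8 against 844, a gene whose crest is sharper than a cosine. Chrna4, a subunit of an acetylcholine receptor (226.1, 175.2 and 640.4), was lowest at ZT14, and Cyp2b9, a cytochrome P450, was also among the 10 largest gaps but differed 6.68-fold between ZT02 and ZT26. Of the 14 core clock genes, 1 was above the cosine by 1.5-fold (Nr1d1, gap 0.84). A further 3 were below it (Per1, Per3 and Cry2, gaps -0.85, -1.10 and -0.62). Of the 13 clock output genes, 0 were above and 2 below (Usp2 and Wee1, -0.79 and -0.61). Over all 10966 genes, 66 were above and 81 below.

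The remaining lists had medians from -0.11 to 0.03, with at most 1 member past the fold in each. Bile acid synthesis and transport had 14 tested genes and none past 1.5-fold, with Nr0b2 (SHP), a bile acid-induced repressor, at 570.1, 425.8 and 670.9 units. Glycogen and glycolysis genes (14, median 0.02) and gluconeogenesis and amino acid catabolism (20, median 0.02) had none past the fold either, with Pfkfb3, a switch of glycolysis, at 376.6, 318.6 and 161.1 units and Got1, an aspartate aminotransferase, at 7074, 8547 and 4968. Among 17 genes of the amino acid response 1 was lower, the amino acid carrier Slc38a2 (3824, 1834 and 2028), and among 14 of the cell cycle 1 was lower, Ccng2. No gene of mRNA decay and translation control passed the fold, with Noct, a circadian phosphatase, just short of it at 628.4, 775.4 and 426.8 units. Cirbp, the cold-inducible RNA-binding protein, read 337.7, 183.5 and 186.6 units, a step down between ZT10 and ZT14. Of the 10 tested members of its list, it was the only 1 under ZT10 by 1.5-fold. The list had 4 members above 0 and 6 below 0, with 0 past the fold and a median of -0.03. Tubulin and cytoskeleton genes had a median of -0.11, with 0.18 against ZT10 and -0.34 against ZT18, as in Tubb2a (147.0, 264.0 and 915.7), and so were on the way up. Growth hormone targets, NRF2 targets, drug metabolism and acute phase genes had none past the fold. Among them Osgin1, an oxidative stress gene, read 1599, 1335 and 2004 units, and Gclc, the controlled step of glutathione synthesis, read 4307, 3491 and 4614. Socs3, an inhibitor of cytokine signalling, read 266.3, 277.8 and 181.9, and Nr1i3, the xenobiotic receptor CAR, read 3576, 2677 and 2681. The acute phase gene Saa1 had a difference of 0.52 but differed 2.91-fold between ZT02 and ZT26.

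Markers of the cell types that liver can hold were also set out at ZT14. None of the 11 hepatocyte markers passed the fold, with the largest difference, 0.41, in the transcription factor Hnf4a (4765, 6113 and 4451 units). None of 10 endothelial, 10 stellate cell, 12 Kupffer cell or 5 lymphocyte markers passed it. The largest differences were 0.38 for the endothelial receptor Lyve1 (452.8, 651.3 and 554.2 units), -0.29 for the macrophage lysozyme Lyz2 (715.8, 644.9 and 863.1) and -0.21 for Cd74 of antigen presentation (515.2, 539.8 and 752.0). Of the cholangiocyte markers 4 were at or below the minimum, and the 1 tested, Sox9, had a difference of 0.36 that rested on ZT10 (190.1, 317.6 and 321.1). The summed level of the marker lists was lower on ZT10 and ZT14 than on ZT18 for Kupffer cells and lymphocytes, and their part in the results above was not tested.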

How the data were processed

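The authors deposited log2 signals for 35556 probe sets of the Affymetrix Mouse Gene 1.0 ST array. The submitters' processing notes name RMA in Affymetrix Expression Console 1.1.2637.26569, which corrects background, normalizes the arrays together and summarizes probes, and the values were used as deposited. A single gene symbol was given for 21789 probe sets by the platform annotation, several for 1621 and none here for 12146. Levels are printed in units, 2 raised to the log2 value, and are not compared between genes. The minimum of 85 units and the background of 43 units, used in an alternative, come from the study's methods. Differences, list medians and cosines (period 24 h, least squares on 6 arrays) were computed with pandas and numpy and checked on simulated data. With 1 array per time point no test was made and no p-value is given; the number of arrays limits the precision. Members and the 33 gene lists (563 entries, 455 tested) were chosen with earlier results of these data known. Named genes were the 15 largest peaks and dips, up to 4 genes past the fold per list (the 2 largest where none passed), all tested clock and clock output genes, and the 10 largest gaps from the cosine in each direction. Predicted genes and small RNAs were counted only (7 of the 37 dips). Further genes were named after their values were seen: Hsp90aa1, Hspb1, Dnaja1, Hspa5, Herpud1, Nop2, Gas5, Tsc22d3, Lepr, the weaker peaks, Erbb3, Mvd, Sqle, Srebf2, Ddx60, Trim30d and the weaker dips. Genes of the lists with no single-symbol probe set were not analysed here. Sequences are from RefSeq (GRCm38.p6). Alternatives are the minimum, centring, background, averaging, fold, 1 probe set per gene, either neighbour alone and arrays left out of the cosine.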

Additional observations from a re-analysis of the deposited data

How the results depend on the processing

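Centring each array on its median, averaging the neighbours on the natural scale, another basis for the minimum, no minimum and 1 probe set per gene kept the 4 counts of higher, lower, peak and dip probe sets within 1.5 times. Doubling the minimum left 15 peaks. Subtracting the background gave 128 higher, 236 lower, 36 peaks and 108 dips. At 2-fold there were 9 higher, 23 lower, 4 peaks and 5 dips. With 1 neighbour left out, the count of higher probe sets ran from 95 to 226 and that of lower ones from 207 to 226. With all 7 arrays in the cosine, 4 probe sets lay above and 9 below it, since the fit then follows ZT14; leaving out 1 further array gave 65 to 233 above and 86 to 199 below, with both highest counts without ZT18, and 140 below without ZT10. List medians with 1 neighbour left out ran from -0.49 to -0.21 for cholesterol synthesis, -0.82 to -0.24 for interferon, 0.01 to 0.85 for heat shock, -0.02 to 0.36 for the endoplasmic reticulum, 0.11 to 0.36 for glucocorticoid-induced genes, -0.34 to 0.18 for tubulins, 0.09 to -0.21 for Kupffer cell markers, -0.03 to 0.51 for clock output and -0.02 to 0.74 for the single cholangiocyte marker Sox9, and of these the last 2, the endoplasmic reticulum, tubulins and Kupffer cell markers took both signs. The core clock median was -0.20 with neighbours averaged on the natural scale. With 1 neighbour left out, the sign turned among named genes past the fold for Ppp1r3g (0.35 against ZT18 and -1.63 against ZT10), Pdk4 (-1.55 and 0.23), Ciart (1.94 and -0.16) and Ypel2 (-1.49 and 0.07), and it also turned in genes short of the fold, such as Nr1d1 (2.35 and -1.62) and Arntl (-1.82 and 1.37). No paired analysis was possible because each time point has 1 array and no test was made.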

Other observations

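Some single genes of glycosylation, chosen after their values were seen and so no evidence for the group, had higher values at ZT14, whereas the galactosyltransferase B3galt1 (449.6, 210.3 and 578.9 units) was a dip. Alg2, a mannosyltransferase of the N-glycan precursor, was a peak at 404.7 units on ZT10, 636.6 on ZT14 and 407.3 on ZT18. St3gal5, the synthase of the ganglioside GM3, read 1704, 2751 and 1370 units, and B4galt5, a galactosyltransferase, read 718.4, 1081 and 715.8. Mgat2, which builds complex N-glycans, read 378.4, 689.0 and 496.1, and Alg12, another mannosyltransferase, stepped up from 289.6 to 634.8 and stood at 596.8. Arfgap3, which acts in transport through the Golgi, read 204.9, 291.1 and 204.7, short of 1.5-fold.

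Probe sets outside the tested set also differed at ZT14. Among 4774 above the minimum with no gene name here, 108 were higher and 71 lower by 1.5-fold, and among 833 with several symbols 3 were higher and 9 lower. In the tested set 70 of 12076 were higher and 108 lower. Probe sets with no name thus passed the fold more often, and with the opposite balance of directions.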
